A study of Mus musculus with 8 samples.

Results

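The immunoproteasome and peptide loading genes are 10 mouse genes that cut proteins into peptides and place those peptides on MHC class I molecules. They were taken by gene name from a deposited table of 43346 genes, each name occurred in 1 row, and all 10 had enough counts to be tested. RNA came from 4 libraries of LLC1, the Lewis lung carcinoma line of a C57BL mouse, and 4 of MLE12, a distal lung epithelial line. MLE12 was derived from lung tumours of a mouse carrying the SV40 large T antigen, a viral oncoprotein, under the human surfactant protein C promoter. No reagent was added to either line, and both were harvested near 80% confluence, so no sample received interferon. Each group is a single established line, so differences between carcinoma and epithelium and those between these particular lines cannot be told apart. Whether libraries of the same line came from separate cultures is not stated, so p-values measure only the spread between these libraries, which may be technical.

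The proteasome is a barrel of alpha and beta subunits in which 3 beta subunits cut peptide bonds. Cells exposed to interferon, and many immune cells at rest, replace the constitutive cutting subunits Psmb5, Psmb6 and Psmb7 with Psmb8, Psmb9 and Psmb10, which gives the immunoproteasome. Psme1 and Psme2 form the PA28 cap that opens the barrel. The TAP transporter, a dimer of Tap1 and Tap2, carries peptides into the endoplasmic reticulum, where Tapbp (tapasin) and Tapbpl (TAPBPR) load them on class I molecules and the aminopeptidase Erap1 trims them.

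Library totals ran from 46840648 to 55285307 counts in LLC1 and from 48643667 to 76722481 counts in MLE12. Levels are CPM, the rate of a gene's counts in the TMM-scaled library total, and a log2 fold change is LLC1 over MLE12, so a negative value is higher in MLE12. A count of 0 allows 3 counts, which is 0.0381 to 0.0693 CPM depending on the library. Such limits cover counting error only, because amplified reads without molecular identifiers are not independent molecules. The alveolar and epithelial markers fitted the MLE12 label only in part. Of 10 listed, 7 were tested and all 7 were higher in MLE12, beside 40.9% of all genes tested. They were led by the adhesion gene Cdh1 (-8.11 ± 0.07), the lung transcription factor Nkx2-1 (-7.79 ± 0.08) and Sftpc (-7.26 ± 0.14). Sftpc, Epcam and Napsa (30, 5 and 4 LLC1 counts) had enough counts to be tested only through MLE12, which fixed their direction. Sftpd had no count in any library. Over the MLE12 libraries Sftpa1 had 7 counts and Lamp3 had 21. Leukocytes carry immunoproteasomes, so their markers were read as well. Summed over 12 leukocyte genes the level was 11.04 to 12.8 CPM in LLC1 and 14.9 to 16.7 CPM in MLE12, most of it Csf1r (10.5 ± 0.788 CPM and 12.8 ± 1.02 CPM, SD, n = 4 in each line), which was slightly higher in MLE12 (-0.29 ± 0.08). Of the 3 leukocyte genes with enough counts to test, Coro1a was also higher in MLE12 (0.394 CPM in LLC1 against 2.41 CPM, -2.61 ± 0.205). Cd53 was higher in LLC1 (0.328 CPM against 0.0196 CPM in MLE12, 4.06 ± 0.58). Among the untested genes, over all libraries of a line, Ptprc had 0 counts in LLC1 and 2 in MLE12, Cd3e 0 and 6, and Tyrobp 0 in both. Others held more: Fcer1g had 48 and 43, Lyz2 30 and 36, and Cd79a 26 and 14, beside 20 LLC1 counts of Psmb8.

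Promoter windows show what DNA lies at RefSeq start sites of these genes. RefSeq windows of 300 bases (GRCm38.p6, the assembly also called mm10; 250 bases before the start site to 50 after it) matched 8 of the 10 members in 9 windows; those not matched were Tap2 and Tapbpl. They are shown for the cutting subunit Psmb8 at chr17:34197945-34198244 (+ strand), for Tap1 at chr17:34187306-34187605 (+ strand), whose window is shared with Psmb9, for Erap1 at chr13:74639603-74639902 (+ strand), and for the PA28 pair, Psme1 at chr14:55578244-55578543 (+ strand) and the farther upstream of 2 Psme2 windows at chr14:55591052-55591351 (− strand). Each is read 5′ to 3′ on the gene's own strand, and capitals mark the motif matches described after the sequences.
Psmb8: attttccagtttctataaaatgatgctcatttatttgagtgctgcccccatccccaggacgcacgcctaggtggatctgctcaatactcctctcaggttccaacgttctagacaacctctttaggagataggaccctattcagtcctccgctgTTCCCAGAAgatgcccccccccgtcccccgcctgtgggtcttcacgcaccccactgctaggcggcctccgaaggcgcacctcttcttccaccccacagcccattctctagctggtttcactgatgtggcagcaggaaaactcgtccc
Tap1: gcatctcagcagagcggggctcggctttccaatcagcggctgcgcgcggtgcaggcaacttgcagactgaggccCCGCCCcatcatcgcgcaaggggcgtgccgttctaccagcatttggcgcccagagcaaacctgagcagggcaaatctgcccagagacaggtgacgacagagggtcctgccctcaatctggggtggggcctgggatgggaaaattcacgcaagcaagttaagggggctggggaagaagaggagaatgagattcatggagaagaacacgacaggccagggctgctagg
Erap1: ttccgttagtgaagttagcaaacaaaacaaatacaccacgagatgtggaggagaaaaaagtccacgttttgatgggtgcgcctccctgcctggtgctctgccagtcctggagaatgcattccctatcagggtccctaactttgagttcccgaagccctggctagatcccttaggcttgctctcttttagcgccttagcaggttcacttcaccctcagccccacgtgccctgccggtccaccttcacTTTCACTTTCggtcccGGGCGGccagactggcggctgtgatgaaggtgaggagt
Psme1: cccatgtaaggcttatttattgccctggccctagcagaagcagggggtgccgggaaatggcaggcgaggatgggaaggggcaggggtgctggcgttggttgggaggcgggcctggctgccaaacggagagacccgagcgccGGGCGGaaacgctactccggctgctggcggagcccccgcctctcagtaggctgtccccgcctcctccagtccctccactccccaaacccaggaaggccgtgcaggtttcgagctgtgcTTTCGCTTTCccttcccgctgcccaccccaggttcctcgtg
Psme2: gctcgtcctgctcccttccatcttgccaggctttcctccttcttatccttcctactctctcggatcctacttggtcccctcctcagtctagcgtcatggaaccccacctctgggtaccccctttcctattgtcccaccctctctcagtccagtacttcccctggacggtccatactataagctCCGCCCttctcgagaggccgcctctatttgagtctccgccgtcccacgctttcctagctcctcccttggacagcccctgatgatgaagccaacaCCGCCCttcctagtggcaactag

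Motifs were searched by letters on both strands, as descriptions and not as sites. RefSeq start sites differ from the deposited gene starts for some members. The Psmb8 and Psme1 windows, with their motifs, lie wholly inside the deposited models, which begin at 34197721 and 55578123. The core of the interferon-stimulated response element (GAAA, any 2 bases, GAAA) was found in the Erap1 window at -4 to 6 and in the Psme1 window at 10 to 19, with bases counted from the start site, and in 3.44% of all 32851 promoter windows. The gamma-activated site core (TTCNNNGAA) was found in the Psmb8 window at -97 to -89 and in 8.3% of all windows. An NF-kB site (GGGA, any 2 bases, TTCC) was found in none of the 9 member windows and in 1.47% of all windows. The GC box (GGGCGG) lay in 7 of the 9 member windows against 35.7% of all, but the 2 Psme2 windows overlap one another and the Tap1 and Psmb9 windows share 275 bases (chr17:34187306-34187580) and the same GC box. The RefSeq start sites of Psmb9 and Tap1 face away from each other with 225 bases between them.

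All 10 genes were called higher in MLE12, at an adjusted p under 0.05 in the quasi-likelihood test of edgeR, adjusted by the Benjamini-Hochberg method over all 18546 genes tested. Of all genes tested, 40.9% were called in that direction, 40.7% in the other and 81.6% in either, so a call alone is common between these lines. The 4 LLC1 and 4 MLE12 values did not overlap for any of the 10 genes, compared with 38.7% of all genes tested that were separated in that direction and 37.7% in the other. Tested against a fold of 2, 9 of the 10 were higher in MLE12 (16.9% of all genes, and 33.7% in either direction), and Tap2 was the exception. The median log2 fold change of the members was -2.14, and that of all genes tested was 0.02. In bulk RNA, fewer cells expressing a gene and less of its RNA per cell cannot be told apart. The members ranged from a 317-fold difference for Psmb8 to a 1.74-fold difference for Tap2.

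**Figure D1:**
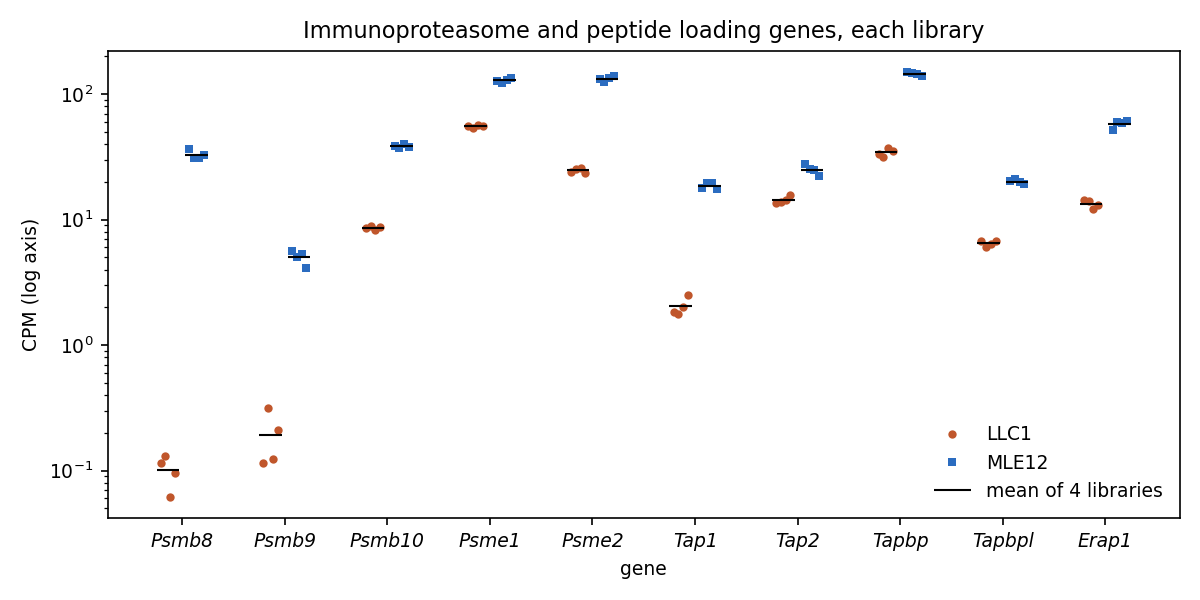
CPM of the 10 genes (log axis) in each of the 4 LLC1 libraries (circles) and 4 MLE12 libraries (squares), with the mean of each line as a bar. Every gene is separated between the lines, most widely Psmb8 (0.101 against 32.7 CPM on average) and least Tap2 (14.4 against 25.03 CPM).

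Psmb8 encodes beta5i (LMP7), the chymotrypsin-like subunit of the immunoproteasome (ENSMUSG00000024338, chromosome 17, 34197721 to 34201454 as deposited, build mm10, like all gene positions given here). It stood at 0.116, 0.131, 0.0620 and 0.0951 CPM in LLC1 replicates 1 to 4 and at 36.4, 31.1, 30.7 and 32.7 CPM in MLE12 replicates 1 to 4. The LLC1 libraries were all near the limit of detection, with 5, 7, 3 and 5 counts, while the MLE12 libraries held 1634 to 2815 counts. The log2 fold change was -8.31 ± 0.14 (adjusted p = 1.6e-20), an error too narrow for so few LLC1 counts. With the Wald test of DESeq2 it was -8.35 ± 0.33. Psmb8 ranked 135 by size among the genes higher in MLE12. The 20 LLC1 counts have a 95% Poisson interval of 12.2 to 30.9 counts, for counting error only. The mean LLC1 level was 0.308% of the MLE12 level. Of 6348 genes as abundant as Psmb8 or more in MLE12, 17 (Psmb8 included) had so low a share in LLC1, and whether reads of the other line make up such counts was not tested. Genes most like Psmb8 were sought with members and gene models named by number left out. By root mean square distance of log2 CPM over the 8 libraries, they were Pdgfrl (0.193), Coro2b (0.219), Klhl13 (0.281), Tspan7 (0.297) and Atp2b4 (0.33).

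Psmb9 encodes beta1i (LMP2), the subunit that replaces Psmb6 (ENSMUSG00000096727, chromosome 17, 34181988 to 34187764). It stood at 0.116, 0.318, 0.124 and 0.209 CPM in the LLC1 libraries and at 5.63, 5.01, 5.30 and 4.12 CPM in the MLE12 libraries. It was thus low in both lines, and its LLC1 libraries held 5 to 17 counts each and varied widely, with a coefficient of variation of 49.2%. The log2 fold change was -4.66 ± 0.23 (adjusted p = 3.4e-13), and -4.69 ± 0.27 with the Wald test of DESeq2. In MLE12, too, the scatter of Psmb9 (12.9%) was the widest of the 10 genes, beside a median of 5.89% for all genes of at least 1 CPM there, and replicate 4 was the low library. The Psmb9 model shares 212 exonic bases with Tap1 on the other strand, and how such reads were counted is not given in the sources used here.

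Psmb10 encodes beta2i (MECL-1), the trypsin-like subunit (ENSMUSG00000031897, chromosome 8, 105935728 to 105938392). It was the one immunoproteasome cutting subunit clearly expressed in LLC1, at 8.58, 8.87, 8.21 and 8.68 CPM, against 38.7, 37.4, 39.97 and 37.6 CPM in MLE12. The replicates lay close together (coefficients of variation of 3.24% and 3.07%), and the log2 fold change was -2.16 ± 0.06 (adjusted p = 2.7e-17). The 3 cutting subunits therefore did not share 1 level of difference: they were 317-fold, 25.3-fold and 4.48-fold higher in MLE12.

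The constitutive subunits that they replace differed far less. Psmb5, the constitutive chymotrypsin-like subunit, was measured at 126 ± 3.36 CPM in LLC1 against 232 ± 9.89 CPM in MLE12 (-0.88 ± 0.04, adjusted p = 3.3e-13). Psmb6 (-0.13 ± 0.05, adjusted p = 0.012) and Psmb7 (-0.12 ± 0.04, adjusted p = 0.013) were also called higher in MLE12, but by less than 1.5-fold, and both calls ended with upper-quartile scaling, with at least 1 CPM required in 4 libraries and without LLC1 replicate 4, where 1 of the 3 was still called. A ratio of 2 genes within a library does not depend on how libraries are scaled. Per length and within each library, Psmb8 made up 0.0314%, 0.0359%, 0.0179% and 0.0273% of the Psmb8 and Psmb5 total in the LLC1 libraries, and 4.56%, 4.33%, 4.01% and 4.29% in the MLE12 libraries. Psmb9 made up 0.0442% to 0.117% of its total with Psmb6 in LLC1 and 1.29% to 1.74% in MLE12. Psmb10 reached a larger share of its total with Psmb7, 4.52% to 4.94% in LLC1 and 16.0% to 17.1% in MLE12. So the constitutive subunits were the more abundant transcripts in every library of both lines, and the immune forms took a larger share in MLE12. On the log2 scale the ratios differed by -7.36 ± 0.22 for Psmb8 to Psmb5, -4.61 ± 0.36 for Psmb9 to Psmb6 and -2.04 ± 0.04 for Psmb10 to Psmb7 (LLC1 minus MLE12, ± SE, with 0.5 counts added to each count). In an exact 2-sided permutation test of 4 against 4 libraries each gave p = 0.0286, the smallest that design allows, and 0.0286 after adjustment over the 6 ratios tested. Shares depend on the length used: the deposited length of Psmb8 is 2736 bases, and its principal GENCODE transcript has 1628. With principal transcript lengths the mean share of Psmb8 was 0.0488% in LLC1 and 7.22% in MLE12.

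**Figure D2:**
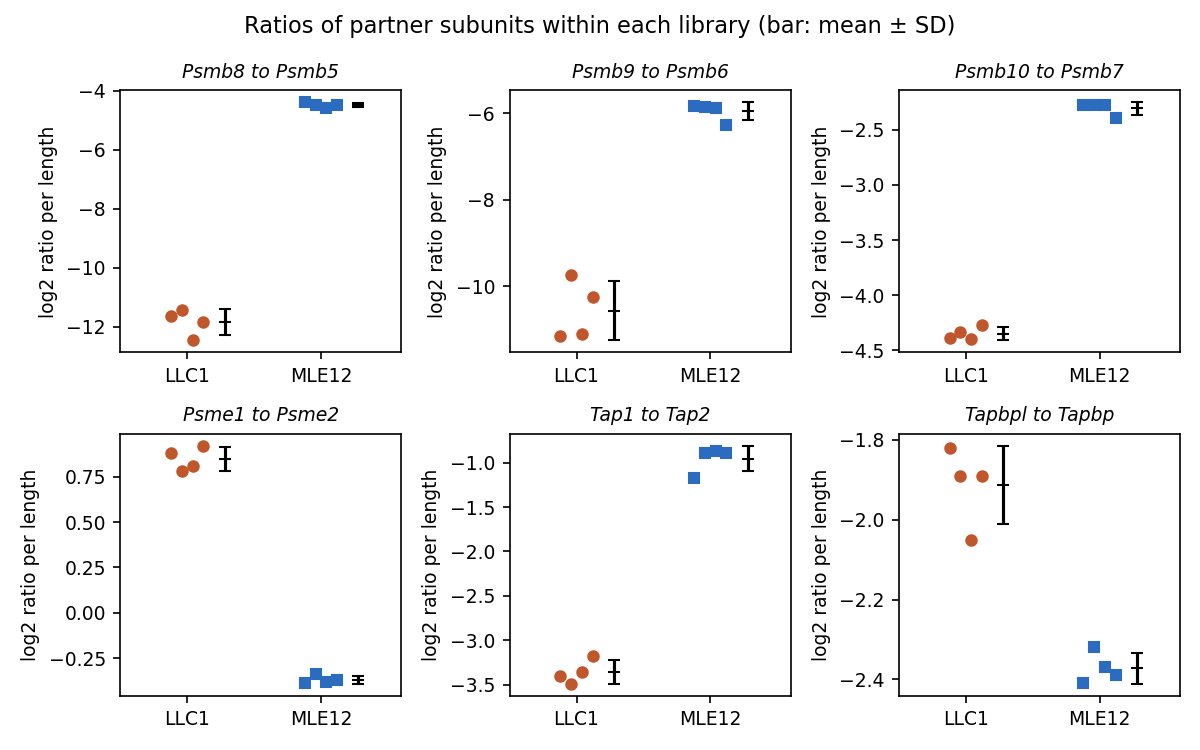
Log2 ratio per length of 6 pairs of partner genes in each library (4 LLC1 circles, 4 MLE12 squares; bars are mean ± SD). The ratio of each immune to constitutive subunit is higher in all MLE12 libraries, and the ratios of Psme1 to Psme2 (0.85 against -0.37 on average) and of Tapbpl to Tapbp (-1.91 against -2.37) are higher in all LLC1 libraries.

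The PA28 cap genes were the most abundant members per length in LLC1 and in MLE12. Psme1 encodes PA28 alpha (ENSMUSG00000022216, chromosome 14, 55578123 to 55581529) and stood at 55.8, 54.1, 57.2 and 55.5 CPM over the LLC1 libraries, against 127.7, 123, 129.8 and 136 CPM in MLE12 (-1.21 ± 0.04, adjusted p = 2.6e-15). Psme2, which encodes PA28 beta (ENSMUSG00000079197, chromosome 14, 55587441 to 55591113), stood at 24.1, 25.3, 25.96 and 23.4 CPM over the LLC1 libraries, against 133, 124, 135 and 139.8 CPM in MLE12 (-2.43 ± 0.05, adjusted p = 5.6e-19). Both were separated between the lines, and Psme2 by more than its partner. PA28 is built from alpha and beta subunits together, and the balance of their transcripts turned over between the lines: per length, Psme1 was 63.1% to 65.4% of the pair in LLC1 and 43.4% to 44.2% in MLE12. The log2 ratio of Psme1 to Psme2 was higher in LLC1 by 1.22 ± 0.04 (exact permutation p = 0.0286). Psme2 has a near-identical copy, Psme2b (99.4% over 794 bases), to which 1.44 CPM were assigned in LLC1, against 9.86 CPM in MLE12 (-2.77 ± 0.12), so the split of reads between them is uncertain.

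The TAP transporter subunits differed unequally. Tap1 (ENSMUSG00000037321, chromosome 17, 34187553 to 34197225) stood at 1.85, 1.76, 2.03 and 2.51 CPM over the LLC1 libraries, against 17.8, 19.7, 19.7 and 17.5 CPM in MLE12 (-3.19 ± 0.10, adjusted p = 4.6e-16). Tap2 (ENSMUSG00000024339, chromosome 17, 34203527 to 34216321) stood at 13.5, 13.7, 14.4 and 15.8 CPM over the LLC1 libraries, against 27.6, 25.1, 24.96 and 22.5 CPM in MLE12 (-0.80 ± 0.07, adjusted p = 3.9e-09). Tap2 was the member closest between the lines, with its lowest MLE12 library 1.43 times its highest LLC1 library. LLC1 thus held Tap2 transcripts at 57.4% of the MLE12 level but Tap1 transcripts at 10.9%. As a share of the pair per length, Tap1 made up 8.17% to 9.94% in LLC1 and 30.8% to 35.3% in MLE12. With principal transcript lengths its mean share was 14.2% in LLC1 and 46.6% in MLE12. Their log2 ratio differed by -2.40 ± 0.10 (exact permutation p = 0.0286). Tap1 also varied more among the LLC1 libraries (16.5%) than in MLE12 (6.32%), with replicate 4 the high library.

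The loading chaperones and the trimming peptidase were present in LLC1 and several-fold higher in MLE12. Tapbp, the bridge between TAP and class I molecules (ENSMUSG00000024308, chromosome 17, 33915899 to 33929288), stood at 33.1, 31.8, 37.2 and 35.2 CPM over the LLC1 libraries, against 150.3, 147.5, 144.7 and 141 CPM in MLE12 (-2.09 ± 0.05, adjusted p = 6.0e-18). Tapbpl, its relative that edits peptides outside the TAP complex (ENSMUSG00000038213, chromosome 6, 125223933 to 125231860), stood at 6.70, 6.10, 6.39 and 6.77 CPM over the LLC1 libraries, against 20.2, 21.1, 20.02 and 19.1 CPM in MLE12 (-1.63 ± 0.07, adjusted p = 4.5e-14). Both were separated, and their log2 ratio (Tapbpl to Tapbp) was higher in LLC1 by 0.46 ± 0.05 (exact permutation p = 0.0286). Erap1 (ENSMUSG00000021583, chromosome 13, 74639872 to 74691875) stood at 14.5, 14.1, 12.1 and 13.0 CPM over the LLC1 libraries, against 51.4, 60.5, 58.5 and 60.9 CPM in MLE12 (-2.11 ± 0.07, adjusted p = 4.8e-16). The low MLE12 library of Erap1, replicate 1, still lay 3.56 times above the highest LLC1 library.

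The order of levels per length differed between the lines for several members: Psme1 and Psme2 changed places at the top, Tap2 ranked lower in MLE12 and Psmb8 higher. In CPM per kilobase of deposited length, LLC1 ran from Psme1 (25.2 ± 0.56) through Psme2 (14), Tapbp (10.4), Psmb10 (6.76), Tap2 (3.798), Erap1 (3.34), Tapbpl (2.76) and Tap1 (0.372) to Psmb9 (0.0524) and Psmb8 (0.0369 ± 0.011). MLE12 ran from Psme2 (75.4 ± 3.74) through Psme1 (58.4), Tapbp (44.2), Psmb10 (30.3), Erap1 (14.4), Psmb8 (12.0), Tapbpl (8.55), Tap2 (6.62) and Tap1 (3.41) to Psmb9 (1.37 ± 0.177). Psmb8 was the lowest member in LLC1 and lay in the middle in MLE12, whereas Psmb9 stayed at or next to the bottom. Neighbours in this order whose libraries overlapped were Tap2 and Erap1, and Psmb9 and Psmb8, in LLC1, and Erap1 and Psmb8 in MLE12. With principal transcript lengths Erap1 fell below Tapbpl in LLC1 and below Psmb8 in MLE12.

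The rest of the proteasome differed by less than every member but Tap2 (-0.80), and the 19S genes leaned toward MLE12 as well. Over all genes tested, 40.7% were called toward LLC1 and 40.9% toward MLE12, and the counts of each list here stand beside those shares. Of 11 other 20S core subunit genes, 5 were called toward LLC1, 5 toward MLE12 and 1 was not called, with a median log2 fold change of -0.06. The largest were Psma7 (0.41 ± 0.04), Psma5 (0.41 ± 0.05) and Psmb1 (0.35 ± 0.05) toward LLC1 and Psma4 (-0.73 ± 0.05), Psmb3 (-0.65 ± 0.05) and Psmb2 (-0.49 ± 0.04) toward MLE12. The 19S regulatory particle, the cap that unfolds ubiquitinated proteins, had 14 of 19 genes higher in MLE12, where 40.9% of all genes were called, and 2 higher in LLC1 (Psmd4, 0.29 ± 0.04, and Psmd14, 0.16 ± 0.05, not called with library totals), with a median of -0.37. Its leading genes toward MLE12 were Psmd6 (-0.94 ± 0.05), Psmd12 (-0.68 ± 0.05) and Psmd3 (-0.64 ± 0.05). Of 11 other activators, inhibitors and assembly chaperones, 4 were higher in MLE12, among them the assembly chaperone Psmg1 (-0.83 ± 0.05), Psmd9 (-0.60 ± 0.05) and the PA28 gamma gene Psme3 (-0.42 ± 0.04), and 2 in LLC1 (Psmd10, 0.28 ± 0.07, and Psmd5, 0.22 ± 0.05). With upper-quartile scaling the activator list had 4 genes called in each direction. None of the genes of these 3 lists passed the test against a fold of 2 in either direction.

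**Figure D3:**
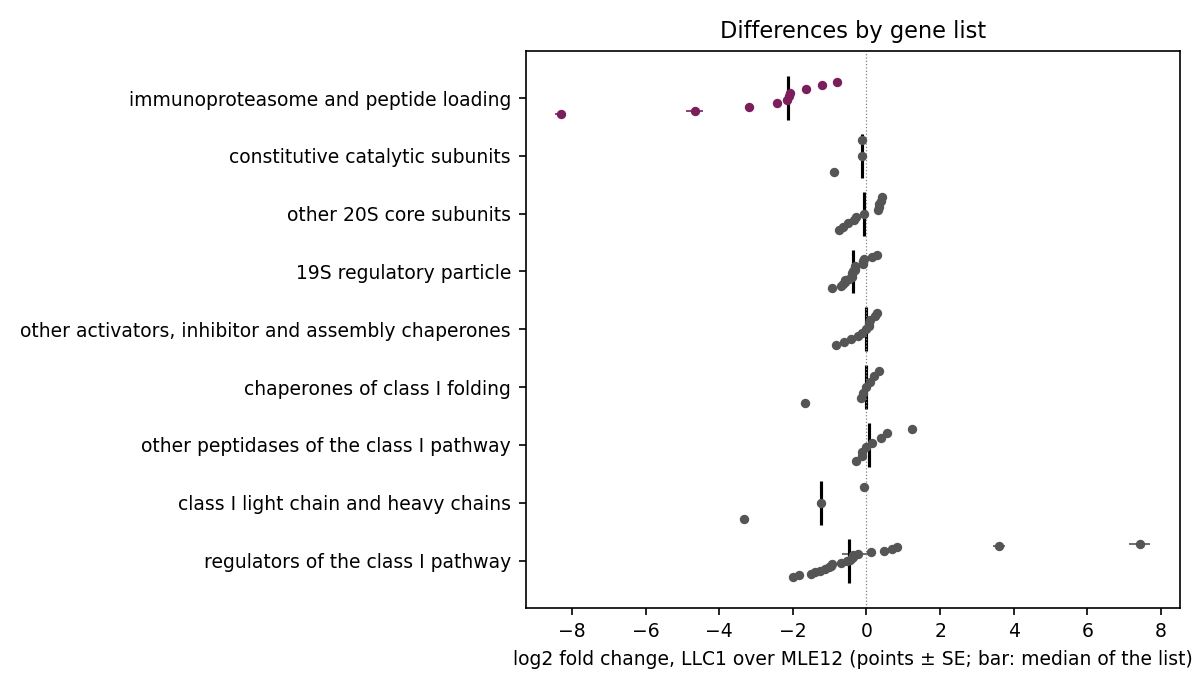
Log2 fold change (LLC1 over MLE12, points ± SE) of each tested gene in 9 lists, with the list median as a bar. The immunoproteasome and peptide loading genes all lie below 0, with a median of -2.14, while the other proteasome lists have medians from -0.37 to 0.

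Other steps of class I loading went both ways, beside 40.7% of all genes tested called toward LLC1 and 40.9% toward MLE12. Of 7 folding chaperones, calreticulin (Calr), a member of the loading complex, stood apart at 302 ± 9.99 CPM in LLC1 against 956 ± 5.67 CPM in MLE12 (-1.66 ± 0.04). Pdia3, which is bound to tapasin in that complex, differed little (-0.13 ± 0.05, adjusted p = 0.012). Its call ended with upper-quartile scaling (adjusted p = 0.119). Ganab (0.33 ± 0.05) and Hspa5 (0.21 ± 0.04) were higher in LLC1, as was Prkcsh (0.09 ± 0.04), which turned to -0.006 with library totals, and 2 genes were not called. With library totals alone the split of this list was 2 higher in LLC1 and 4 higher in MLE12, and without LLC1 replicate 4 it was 2 and 1. Of 8 other peptidases, 4 were higher in LLC1 and 3 in MLE12. Lnpep, the Erap1 relative that trims peptides in endosomes, was the largest, at 101 ± 12.4 CPM in LLC1 against 42.9 ± 5.28 CPM in MLE12 (1.23 ± 0.11), opposite in direction to Erap1. Nln (0.55 ± 0.04) and Tpp2 (0.39 ± 0.05) were also higher in LLC1, and Npepps (-0.28 ± 0.04), Lap3 (-0.12 ± 0.04) and Thop1 (-0.12 ± 0.05) were higher in MLE12. With upper-quartile scaling Lap3 and Thop1 were no longer called. Among the class I chains themselves, H2-K1 (-3.33 ± 0.06) and H2-D1 (-1.24 ± 0.04) were higher in MLE12, and the light chain B2m was not called (-0.06 ± 0.05, adjusted p = 0.224). With library totals alone B2m was called higher in MLE12 (-0.163, adjusted p = 0.00402), as it was with no filter on low counts. Reads of H2 genes may be split among close relatives.

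Of 22 genes known to control this pathway, 5 were called toward LLC1 and 2 were not called, with a median of -0.48. The other 15 were called higher in MLE12, beside 40.9% of all genes tested. The interferon response factors Irf1 (12.6 ± 1.15 CPM in LLC1 against 49.9 ± 2.71 CPM in MLE12; -1.98 ± 0.07) and Irf9 (-1.84 ± 0.07) and the signal transducer Stat3 (-1.51 ± 0.05) led that side. Nfkb1 (0.82 ± 0.05), Jak1 (0.69 ± 0.04) and Jak2 (0.48 ± 0.06) were higher in LLC1. Others were chosen after their values were seen. Nlrc5, the class I transactivator that acts on heavy chain, Tap1 and Psmb9 promoters, differed by much less than those genes (6.26 ± 0.84 CPM in LLC1 against 8.47 ± 0.923 CPM in MLE12; -0.44 ± 0.11). The factors at the far end toward LLC1 were Irf8 (7.07 CPM against 0.0429 CPM; 7.42 ± 0.28) and Socs1, a feedback inhibitor of interferon signalling (7.74 CPM against 0.645 CPM; 3.60 ± 0.16). Each regulator named kept its direction and its call with the 3 other scalings (DESeq2 size factors, upper quartile and library totals).

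Position was shared by several members. Psmb9, Tap1, Psmb8 and Tap2 lie in that order within 34.3 kb of the MHC class II region of chromosome 17, and Psme1 and Psme2 lie within 13.0 kb on chromosome 14. Differences inside the chromosome 17 cluster were far from equal, from -8.31 for Psmb8 to -0.80 for Tap2, whose models are 2072 bases apart. Gm20496, a gene model on the opposite strand that shares 498 exonic bases with Psmb8 and 165 with Tap2, stood at 1.18 ± 0.154 CPM in LLC1 against 14.8 ± 0.533 CPM in MLE12 (-3.64 ± 0.10). Because the counting strand is not stated, reads of the overlapping genes cannot be told apart. Of the 9 other genes within 50 kb of the cluster, 3 were tested, 2 of them were higher in MLE12 (beside 40.9% of all genes tested) and 1 was not called. The 2 were Gm20496 and Gm15821, both overlapping members. Gm15821 shares 533 exonic bases with Tap2 on the opposite strand (5.01 CPM in LLC1 against 7.83 CPM in MLE12, -0.65 ± 0.11). It is named for this overlap, though below 10 CPM, and the same limit holds for Tap2. Around the Psme1 and Psme2 pair, 7 of 10 tested genes were higher in MLE12 (beside 40.9% of all genes tested) and 1 was higher in LLC1. Irf9 was one of them, and Dcaf11 (-1.46 ± 0.05), Rnf31 (-0.79 ± 0.06), Ipo4 (-0.78 ± 0.05) and Tm9sf1 (-0.81 ± 0.04) were others, while Pck2 (1.77 ± 0.04) was higher in LLC1.

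**Figure D4:**
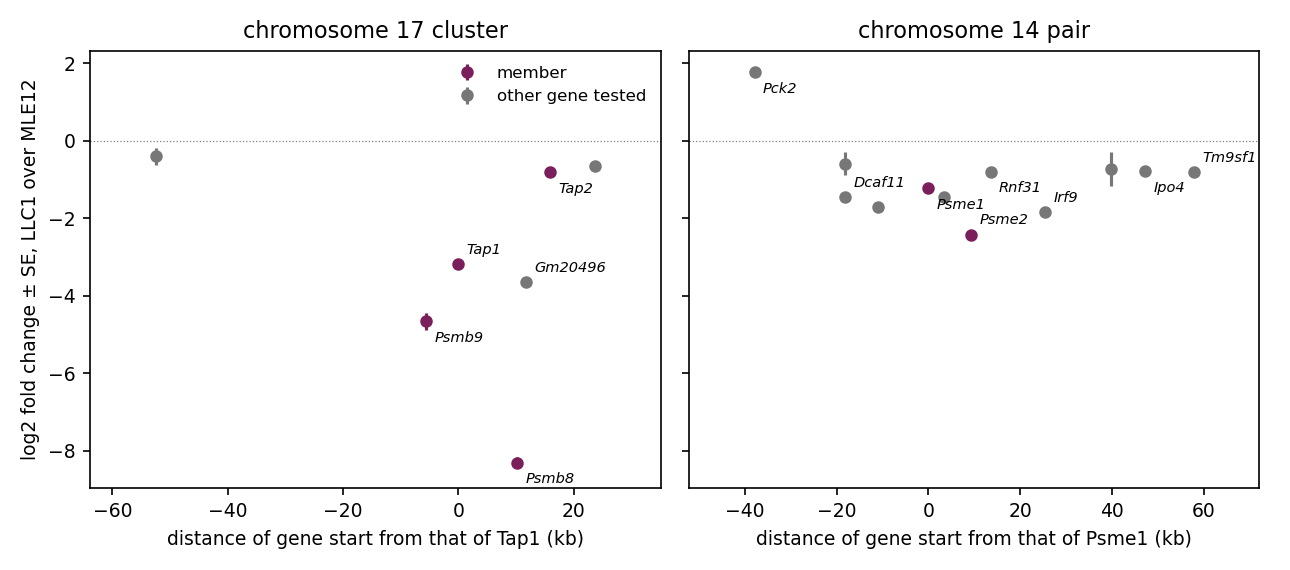
Log2 fold change (LLC1 over MLE12, ± SE) against the distance of each tested gene's start from that of Tap1 (left) or Psme1 (right), in kb, for genes within 50 kb of a member; members are purple and labels are given to members and to genes reaching 10 CPM in either line. Psmb8 (-8.31) and Tap2 (-0.80), the members that differ most and least, are neighbouring members, and Psme2 (-2.43) lies below the genes around it.

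Away from those clusters the neighbours leaned toward MLE12 near Psmb10 and were mixed elsewhere. Their calls stand beside 40.9% of all genes tested that were called toward MLE12 and 40.7% toward LLC1. Near Psmb10, 8 of 10 tested genes were higher in MLE12, including Edc4 (-1.16 ± 0.05), Slc12a4 (-1.01 ± 0.06) and the overlapping model Gm16156 (-1.005 ± 0.072), and Pskh1 was higher in LLC1 (0.23 ± 0.06, not called with library totals). Near Tapbp, 4 of 12 were higher in LLC1 and 5 in MLE12: Rps18 (2.24 ± 0.05), Kifc1 (0.60 ± 0.05) and Zbtb22 (0.55 ± 0.05) were higher in LLC1, Vps52 (-0.31 ± 0.05), Wdr46 (-0.17 ± 0.05) and Daxx (-0.17 ± 0.05) were higher in MLE12, and Rgl2 and Pfdn6 were not called. The model Gm19412, which shares 904 exonic bases with Tapbp on the other strand, was higher in MLE12 by nearly as much as Tapbp (-1.84 ± 0.08). Zbtb22 overlaps Tapbp on the same strand and shares 149 exonic bases with it, so the split of reads between them is uncertain. Around Tapbpl, Ncapd2 (0.23 ± 0.04) was higher in LLC1, and Mrpl51 (-0.87 ± 0.05) and the overlapping gene Vamp1 (-0.58 ± 0.09) were higher in MLE12. Cast, the neighbour of Erap1, was higher in LLC1 (0.45 ± 0.05). Over all members together, 57 other genes lay within 50 kb and 42 were tested. Of those tested, 24 were higher in MLE12, 8 were higher in LLC1 and 10 were not called, with a median of -0.62. Some of the 24 overlap a member, among them Gm20496, Gm15821, Gm19412 and Gm16156. Others were low in both lines, such as Mir7074 (0.0898 CPM in LLC1 and 0.25 CPM in MLE12).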

How the data were processed

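Poly-A RNA was sequenced as paired reads of 100 nt, per the labels' protocols. The authors deposited raw counts per gene with a length in bases. CASAVA, TopHat2, featureCounts and edgeR with build mm10 are named per the submitters' processing notes; versions, strand setting and treatment of overlapping genes or of reads with several alignments are not given in the sources used here. Lines were taken from the labels. In R 4.3.3 with edgeR 4.0.16, filterByExpr left 18546 genes, library sizes were scaled by TMM (factors 0.924 to 1.04), and the lines were compared by glmQLFit (robust) and glmQLFTest with no covariate. Benjamini-Hochberg adjustment covered all 18546 genes, with calls under 0.05; glmTreat tested against a fold of 2. Errors of log2 fold changes are SEs, taken as the absolute value over the root of the F statistic. These run narrow for genes with few counts in a line: for Psmb8 the SE was 0.138, against 0.331 from the Wald test of DESeq2. The same limit may hold for other genes near the floor in a line, such as Sftpc, Cdh1 and Irf8. Libraries of a line differed beyond counting noise (6.35 to 53.1 times the chi-square that sampling gives), so none was deposited more than once.

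Ratios were tested with scipy 1.17.1 by exact permutation. Strand, exon overlap and principal transcripts came from GENCODE M21 of the same build (98.0% of gene IDs matched). Of the matched genes 78.8% had the deposited coordinates, as did 6 of the 10 members, so exon overlaps are approximate for the models counted. Near-identical copies came from blastn 2.17.0 (at least 90% identity over 30% of the principal transcript). In simulated counts over 18546 genes for LLC1 against MLE12, 49 of 50 genes changed 1.5-fold and all 50 changed 2-fold were called. So were 10 of 18346 unchanged genes. Every simulated gene had the same spread beyond counting (7.10%), and changed genes were not drawn from low levels. These rates therefore do not cover genes that vary more or lie near the floor, such as Psmb8 and Psmb9 in LLC1. The members and the 10 other lists were chosen with earlier results of these data known. All members are named, all constitutive subunits and class I chains, up to 3 called genes per direction of at least 10 CPM from each other list, neighbours within 50 kb of at least 10 CPM, and the 5 genes most like Psmb8 (0.05 CPM added). Members and gene models named by number were left out of those 5. Alternatives were DESeq2 1.42.0, other scalings and filters, a replicate block, other pseudocounts and each library left out.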

Additional observations from a re-analysis of the deposited data

Results flagged for a closer look

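Of 32 sets of 4 libraries examined (10 members and 6 ratios in each line), 3 held a library far from the other 3; chance gives about 1 in 20. In MLE12 replicate 4 the log2 ratio of Psmb9 to Psmb6 was -6.26, against -5.88 to -5.82 in the other MLE12 libraries. In the same library the log2 ratio of Psmb10 to Psmb7 was -2.39, against -2.28 in the other 3. MLE12 replicate 4 was also the shallowest MLE12 library, with 48643667 counts, and its part in these ratios was not tested. In MLE12 replicate 1 the log2 ratio of Tap1 to Tap2 was -1.17, against -0.89 to -0.87 in the others. These gaps were small beside the differences between the lines.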

How the results depend on the processing

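All 10 members kept their direction and their call under each of 15 alternatives of test, scaling, filter, replicate block and left-out library; tested against a fold of 2, 9 were called, and over all genes the count was 6243 in place of 15132. The Psmb8 log2 fold change ranged from -8.47 to -8.14 and that of Psmb9 from -5.02 to -4.49, both set by which LLC1 library was left out. Library totals alone moved the median of all genes from 0.02 to -0.08. Deviations of same-numbered libraries were weakly related (r of -0.0646 to 0.108, beside -0.0922 to 0.0685 for differently numbered ones). Whether the numbers pair libraries is not stated, and such weak correlations cannot settle it. With the replicate block 14795 genes and 10 members were called. For ratios the replicate block left the differences at -7.36 (Psmb8 to Psmb5), -4.61 (Psmb9 to Psmb6), -2.04 (Psmb10 to Psmb7), 1.22 (Psme1 to Psme2), -2.40 (Tap1 to Tap2) and 0.46 (Tapbpl to Tapbp), with an exact sign-flip p of 0.125, the smallest 4 pairs allow. Without 1 library no exact test of 3 against 4 can pass the threshold; the differences ran from -7.50 to -7.16, -4.88 to -4.41, -2.07 to -2.02, 1.19 to 1.24, -2.47 to -2.36 and 0.43 to 0.51 in that order. Depth limits Psmb8 and Psmb9 in LLC1 (20 and 39 counts), so their folds are the least certain.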
